A study of Mus musculus with 6 samples.

Results

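The TALE homeobox genes encode transcription factors whose DNA-binding homeodomain carries an inserted loop of a few residues. The 9 genes described here, Meis1, Meis2, Meis3, Pbx2, Pbx3, Pbx4, Pknox1, Pknox2 and Tgif1, were chosen by name from a table of 47593 gene rows, and all 9 are in it. The choice was made with the E531R and WT values known, partly because Pknox2 was much higher in E531R cells while Meis1 and Pbx3 stayed level. The differences of these genes between the groups are therefore given as a description, without a test.

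MEIS and PKNOX proteins each pair with PBX proteins, and these pairs join HOX proteins on DNA and keep PBX in the nucleus. In blood, MEIS1 and PBX3 are known as the partners of HOXA9 that sustain leukaemia driven by MLL fusions. PKNOX1, also called PREP1, competes with MEIS proteins for PBX, and PKNOX2 is its close relative. TGIF1 binds a related DNA sequence as a repressor and restrains signalling by TGF-beta through SMAD proteins.

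The 6 RNA-seq libraries came from mouse femur marrow cells selected for c-Kit, the receptor for stem cell factor. The cells of 3 libraries carried MLL-AF9 E531R, a leukaemia fusion protein with a substitution in AF9, and those of the other 3 carried MLL-AF9 WT, the unchanged fusion. All 6 shared infection with an MSCVneo retrovirus carrying the fusion, G418 selection and repeated passage with cytokines in methylcellulose, and no library without the fusion was used. The series title names the binding of AF9 to BCOR, a Polycomb corepressor, as what is lost. The labels give no age, strain or sex of the mice. Nor do they say if the replicates came from separate cultures or animals, so SDs and p-values reflect only the spread of these libraries, which may be technical.

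The E531R libraries held between 23755210 and 33459668 reads assigned to genes, and the WT libraries between 14161139 and 30597351. WT replicate 3 stood apart from its group. Its mean correlation with the other WT libraries over the tested genes was 0.978 on the log2 scale, below 0.986 for each of the other 2 WT libraries and 0.996 for each E531R library. The progenitor marker Kit averaged 3335 in E531R and 3587 in WT libraries. Cd3e, Ms4a1 and Cxcl12, which mark T, B and stromal cells, had 0 reads in all 6. Other markers of B and stromal cells did have reads. Cd79b averaged 58.2 in E531R and 89.7 in WT, and Col1a1 17.4 in E531R and 6.22 in WT. Over all tested genes 10.4% were called higher and 9.53% lower in E531R, the shares to set beside the marker counts that follow. Of 6 neutrophil markers all 6 were called higher in E531R, with summed levels between 65989 and 73379 in E531R libraries and between 6079 and 8322 in WT libraries. Of 6 monocyte and macrophage markers 5 were called higher and 1 lower, with summed levels between 9638 and 10715 in E531R libraries and between 4174 and 6611 in WT libraries. Of 3 tested megakaryocyte markers all 3 were higher. Sums over all 5 listed were between 424 and 467 in E531R and between 91.0 and 124 in WT libraries, mostly from Vwf. Of the untested ones, Itga2b was level, at 5.79 in E531R and 5.59 in WT. Gp9 averaged 14.6 in E531R and 3.76 in WT. Of 2 tested stromal and endothelial markers 1 was lower, with sums between 1429 and 1543 in E531R and between 5461 and 6299 in WT libraries, nearly all from Pecam1. The 1 tested T and NK cell marker, Nkg7, was lower, and the tested B cell and red cell markers did not pass. Of 5 progenitor markers 1 was higher and 1 lower. The higher one was Cd34, at 1014 in E531R and 505 in WT. The lower one was Gata2, at 32.8 in E531R and 83.1 in WT. In bulk RNA, more cells of a type and more RNA per cell cannot be told apart, and the part of these shifts in the TALE values below was not tested.

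The promoters of 3 genes are shown because they stand for the different outcomes below: Pbx4 and Tgif1 were lower in E531R libraries, and Meis1 stayed level. RefSeq on GRCm38.p6 gave windows for 6 of the 9 genes, Meis1, Meis2, Meis3, Pbx2, Pbx4 and Tgif1. Each runs 5′ to 3′ along the gene's strand, from 250 bases before the annotated start to 50 bases after it. Capitals mark TGACAG, the core motif of MEIS and PKNOX proteins, searched on both strands, as was TGATNNAT, a motif of PBX and HOX pairs; these matches do not overlap.
Pbx4, chr8:69832374-69832673, plus strand: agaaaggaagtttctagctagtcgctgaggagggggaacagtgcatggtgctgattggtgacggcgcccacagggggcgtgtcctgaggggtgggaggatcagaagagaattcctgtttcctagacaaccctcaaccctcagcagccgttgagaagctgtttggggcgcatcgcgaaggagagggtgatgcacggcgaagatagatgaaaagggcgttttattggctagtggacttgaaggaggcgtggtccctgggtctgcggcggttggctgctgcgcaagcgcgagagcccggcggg
Tgif1, chr17:70851161-70851460, minus strand: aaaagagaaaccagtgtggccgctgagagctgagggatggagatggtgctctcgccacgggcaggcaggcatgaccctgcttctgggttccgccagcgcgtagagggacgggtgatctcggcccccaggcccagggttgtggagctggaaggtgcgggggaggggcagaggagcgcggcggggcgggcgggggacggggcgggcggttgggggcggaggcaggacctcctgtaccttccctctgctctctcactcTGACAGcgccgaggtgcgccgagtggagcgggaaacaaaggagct
Meis1, chr11:19018920-19019219, minus strand: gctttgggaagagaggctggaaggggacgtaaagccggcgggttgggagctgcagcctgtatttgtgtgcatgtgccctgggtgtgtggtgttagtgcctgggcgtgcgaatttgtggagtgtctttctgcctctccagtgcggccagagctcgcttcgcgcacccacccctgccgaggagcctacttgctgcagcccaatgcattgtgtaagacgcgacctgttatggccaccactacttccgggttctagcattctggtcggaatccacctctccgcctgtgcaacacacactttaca
TGACAG occurred in 2 of the 10 windows of these 6 genes, both of Tgif1, which has 5 annotated starts, and in 19.2% of all 32851 windows of the same length. The Tgif1 window printed here was chosen because it holds TGACAG, so the match in it follows from that choice. Of the 2 Tgif1 windows with TGACAG it has more CG pairs, 23 against 2. The match lies at bases 256 to 261, just after the start. TGATNNAT occurred in 1 of the 10 windows, another of Tgif1, and in 8.85% of all windows. A match in these letters is no evidence of binding, and the expression data do not say which of the Tgif1 starts was used.

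Among the 9 genes, Pknox2 was the one with the largest difference. Its normalised read count, the count divided by the authors' size factor for the library, was 1782, 1797 and 1743 in E531R replicates 1, 2 and 3, against 99.0, 94.1 and 103 in WT replicates 1, 2 and 3. Every E531R library lay far above every WT library, and within each group the 3 values were close together. The mean was 1774 ± 27.8 in E531R and 98.7 ± 4.50 in WT (SD, n = 3 each), a 17.97-fold difference resting on 6202 and 275 reads. The log2 fold change was 4.15 (SE 0.078) in a limma fit across all genes, on the log2(value + 1) scale. Of the 12991 genes in that fit, 0.901% had a larger change in either direction, and Pknox2 stood at place 43 from the top.

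Pknox1, the widely expressed relative of Pknox2, differed the other way. It lies on chromosome 17 from 31564734 to 31607693 (GRCm38, plus strand). Its normalised read count was 594, 694 and 635 in E531R replicates 1, 2 and 3, against 956, 898 and 941 in WT replicates 1, 2 and 3. The groups did not overlap, and E531R was lower. The log2 fold change was -0.54 (SE 0.084), with means of 641 ± 50.1 in E531R and 932 ± 30.3 in WT (SD, n = 3 each). Within a library the level of Pknox2 per kb of exon was 2.01, 1.74 and 1.84 times that of Pknox1 in E531R replicates 1, 2 and 3, against 0.0694, 0.0703 and 0.0735 times in WT replicates 1, 2 and 3. The order of the 2 relatives was therefore opposite in the 2 groups in every library, a ratio that does not depend on the size factors.

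Among the 3 MEIS genes, whose products carry PBX partners to HOX sites, only Meis1 was abundant. It lies on chromosome 11 from 18879817 to 19018985 (minus strand). Meis1 had normalised read counts of 1666, 1729 and 1724 in E531R replicates 1, 2 and 3, against 1692, 1629 and 1434 in WT replicates 1, 2 and 3. The groups overlapped, and the lowest value was that of WT replicate 3. The log2 fold change was 0.11 (SE 0.082), and it was 0.04 without WT replicate 3. Meis3, on chromosome 7 from 16175090 to 16186504 (plus strand), lay just above the minimum mean of 10 that the fit required, with 9.73, 10.7 and 9.73 in E531R and 11.2, 6.89 and 14.2 in WT libraries, in replicate order, from between 6 and 18 reads a library. Its groups overlapped, and its log2 fold change of -0.04 had an SE of 0.31. Meis2, on chromosome 2 from 115863064 to 116065839 (minus strand), was not in the fit, with 4 reads over the 3 E531R libraries and 6 over the 3 WT libraries, too few for either group to be told from the other.

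The PBX genes, which encode the shared partners of MEIS and PKNOX proteins, differed among themselves. Pbx3, on chromosome 2 from 34171457 to 34373142 (minus strand), had normalised read counts of 1798, 1721 and 1807 in E531R replicates 1, 2 and 3, against 1884, 1746 and 1638 in WT replicates 1, 2 and 3, and the groups overlapped. Its log2 fold change was 0.02 (SE 0.076), and -0.03 without WT replicate 3.

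Pbx2, on chromosome 17 from 34591266 to 34597400 (plus strand), had normalised read counts of 1812, 1797 and 1804 in E531R replicates 1, 2 and 3, against 1312, 1344 and 1672 in WT replicates 1, 2 and 3. All 3 E531R values were above the WT values, the nearest being WT replicate 3. The log2 fold change was 0.33 (SE 0.10), and 0.44 without WT replicate 3. The annotation has the gene Gpsm3, a regulator of G proteins, overlapping Pbx2 on the same strand, and Gpsm3 averaged 1289 ± 92.1 in E531R and 969 ± 143 in WT (SD, n = 3 each). Where reads fall in the stretch they share, counting cannot separate them.

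Pbx4, whose product is known mainly from testis, was low in both groups. It lies on chromosome 8 from 69832491 to 69872292 (plus strand). Its normalised read count was 9.73, 8.76 and 4.87 in E531R replicates 1, 2 and 3, against 27.1, 37.9 and 33.1 in WT replicates 1, 2 and 3. Every E531R library lay below every WT library, on 28 reads over the E531R and 92 over the WT libraries. The means were 7.78 ± 2.57 in E531R and 32.7 ± 5.38 in WT (SD, n = 3 each), with a log2 fold change of -1.97 (SE 0.30). A pseudocount of 10 in place of 1 brought it to -1.27, as a larger pseudocount does for low genes.

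Tgif1, the repressor of the 9, lies on chromosome 17 from 70844205 to 70853546 (minus strand). It had normalised read counts of 337, 343 and 291 in E531R replicates 1, 2 and 3, against 527, 505 and 439 in WT replicates 1, 2 and 3. The E531R values were all below the WT values. The log2 fold change was -0.60 (SE 0.11), with means of 324 ± 28.3 in E531R and 490 ± 45.6 in WT (SD, n = 3 each).

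**Figure D1:**
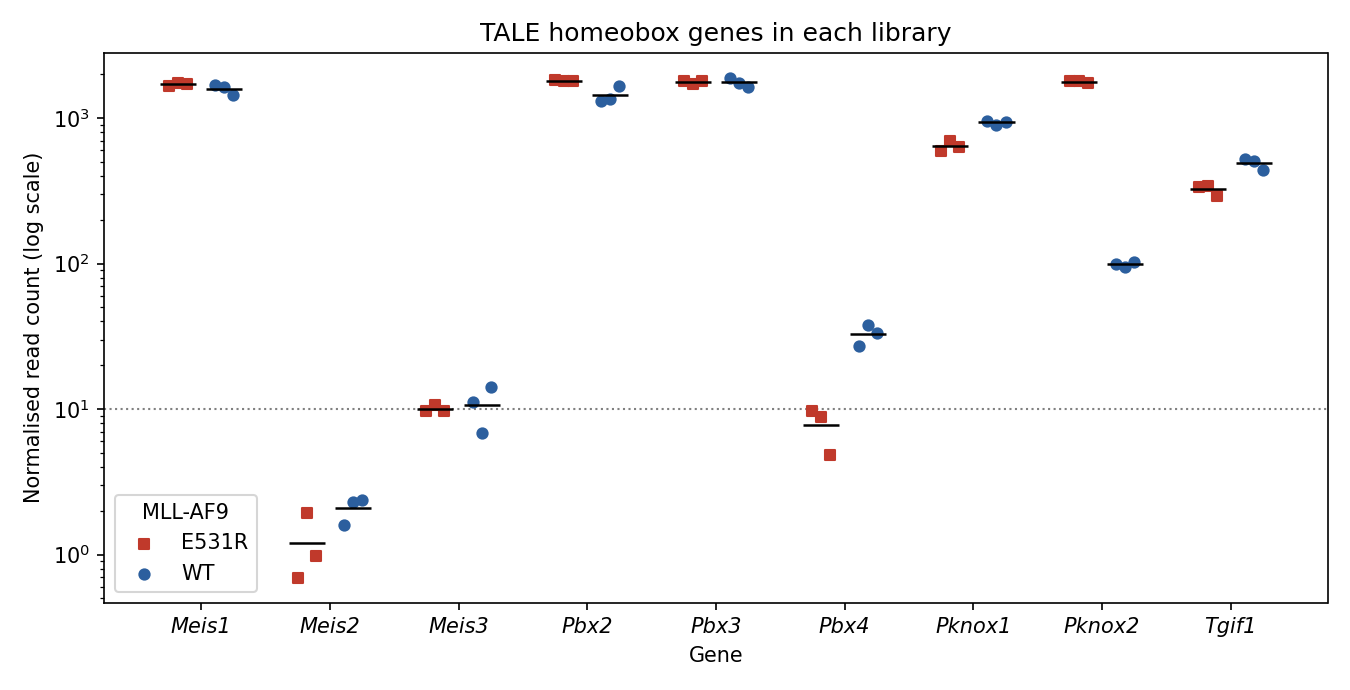
Levels of the 9 TALE genes (x axis) as normalised read counts (y axis, logarithmic), with 1 point per library (red squares E531R, blue circles WT), a bar at the mean of 3 libraries and a dotted line at the minimum mean of 10. The Pknox2 points lie between 1743 and 1797 in E531R and between 94.1 and 103 in WT, while the Meis1 and Pbx3 points of the groups overlap.

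Of the 8 TALE genes in the fit, 1 (Pknox2) was past its threshold in the direction of higher values in E531R and 3 (Pbx4, Pknox1 and Tgif1) in the direction of lower values, where 10.4% and 9.53% of all tested genes were, 19.9% in all. The groups did not overlap in 5 of the 8, with E531R above WT in 2 and below in 3, where 44.0% of all tested genes did not overlap, 21.2% with E531R above and 22.8% below. Since these genes were chosen on this contrast, nothing is read from these counts. Their median log2 fold change was -0.01, beside 0.01 over all tested genes. Without WT replicate 3 Pbx2 was also past the threshold, as were 47.2% of all tested genes, 24.4% higher and 22.9% lower in E531R. DESeq2 on recovered reads also put Pbx2 past it, while in the authors' deposited table Pbx2 was not past the same threshold. These calls of Pbx2 are given as a description too. In the authors' deposited table, whose fold change runs WT over E531R, Pknox2 had a log2 fold change of -4.01 and Pbx4 one of 1.48, so E531R was higher for Pknox2 and lower for Pbx4 there too.

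**Figure D2:**
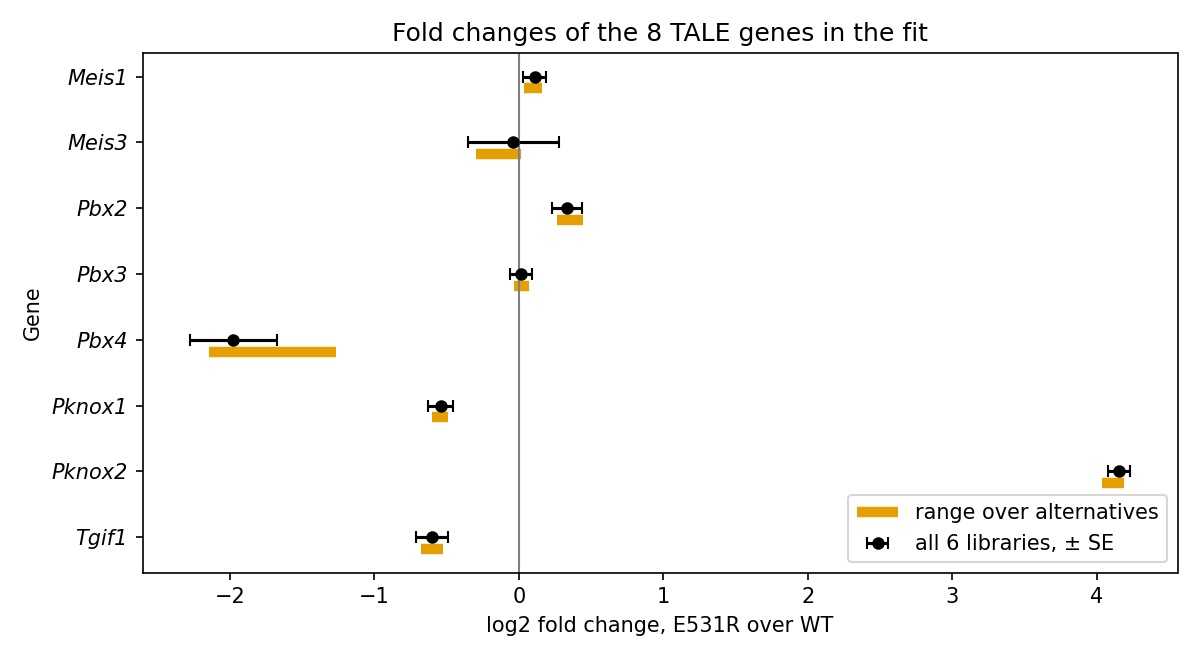
E531R over WT as log2 fold change (x axis) for the 8 TALE genes in the fit (rows), with black points and error bars for the limma estimate and its SE over all 6 libraries and orange bars for the range over the alternative settings. Pknox2 lies at 4.15 and Pbx4 at -1.97, and the bars of Meis3 and Pbx3 cross 0.

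Per kb of annotated exon, which allows levels of different genes to be set side by side, the order differed between groups mainly in the place of Pknox2. In E531R libraries Pbx2 came first, with a mean of 496 ± 2.05 normalised reads per kb, then Pbx3 with 291 ± 7.78, Pknox2 with 172 ± 2.69 and Meis1 with 162 ± 3.35 (SD, n = 3 each). Next were Pknox1 with 92.4 ± 7.23 and Tgif1 with 57.5 ± 5.03, and Pbx4, Meis3 and Meis2 had at most 3.51. Among neighbours in this E531R order the ranges of Pbx4 and Meis3 overlapped, and the others did not.

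In WT libraries Pbx2 came first with 396 ± 54.7 normalised reads per kb and Pbx3 next with 287 ± 20.2, then Meis1 with 150 ± 12.8, Pknox1 with 134 ± 4.36 and Tgif1 with 87.2 ± 8.10 (SD, n = 3 each). Pbx4 had 14.7 ± 2.43 and Pknox2, at place 7, 9.55 ± 0.435, above Meis3 and Meis2. Meis1 and Pknox1 overlapped in this WT order, with ranges of 136 to 161 and 129 to 138, and no other neighbours did. Per kb of exon Pknox2 was at 1.06 ± 0.030 times the level of Meis1 in E531R libraries, against 0.0639 ± 0.0081 times in WT libraries (SD, n = 3 each). The length used matters to these values. With the longest annotated transcript as length, Pknox2 had 488 ± 7.64 and Meis1 226 ± 4.67 normalised reads per kb in E531R, against 27.2 ± 1.24 and 210 ± 17.8 in WT, so Pknox2 was then well above Meis1 in E531R and still below it in WT. With that length Pbx3 came before Pbx2 in both groups, Pknox1 before Meis1 in WT, and Meis3 before Pbx4 in E531R.

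Summed per kb, the 9 genes came to 1277 ± 4.89 in E531R and 1084 ± 24.7 in WT libraries (SD, n = 3 each). PBX genes made up most of this sum, 61.9% ± 0.929 in E531R and 64.4% ± 2.32 in WT. The 2 PKNOX genes held 20.7% ± 0.606 in E531R and 13.3% ± 0.257 in WT, and Tgif1 4.50% ± 0.380 in E531R and 8.06% ± 0.868 in WT. The MEIS genes held 12.9% ± 0.265 in E531R and 14.2% ± 1.32 in WT, where the libraries overlapped. The PKNOX sum per kb was 264 ± 8.63 in E531R and 144 ± 4.70 in WT, so with Pknox1 lower and Pknox2 higher the sum was higher in every E531R library. These sums and shares were taken only with exon length. They would differ with the longest transcript as length, where Pknox2 had 488 per kb in E531R in place of 172.

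**Figure D3:**
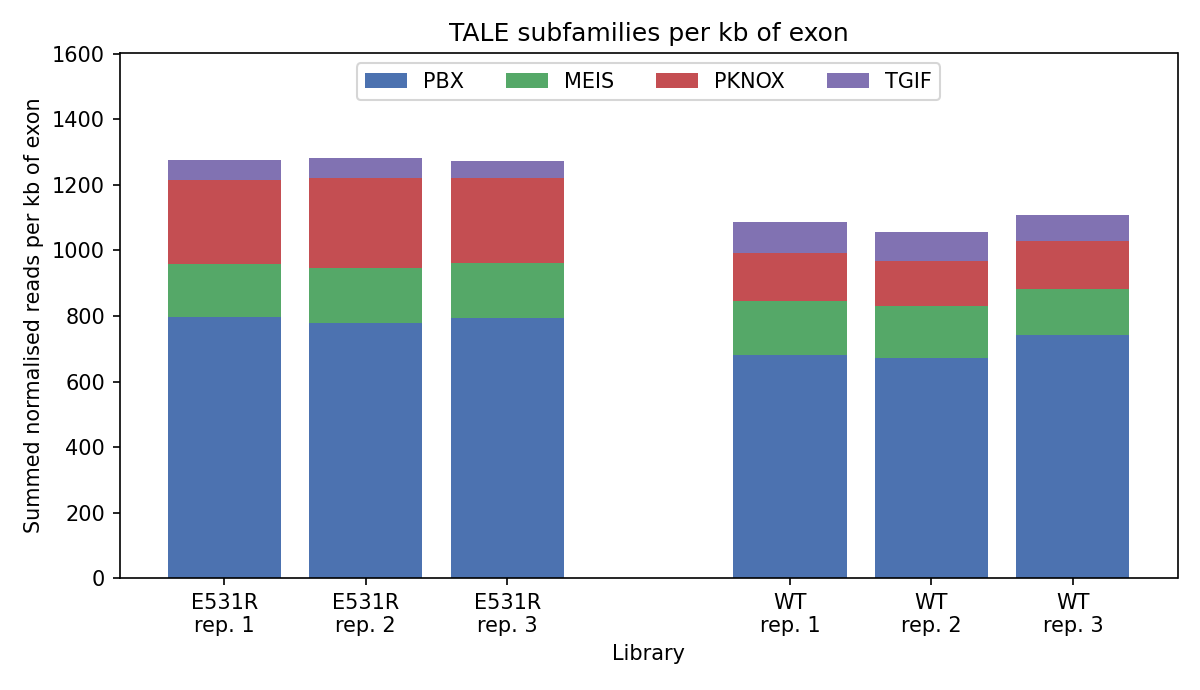
Normalised reads per kb of exon on the y axis, summed over the 3 PBX, 3 MEIS, 2 PKNOX and 1 TGIF genes and stacked for each of the 6 libraries on the x axis. The red PKNOX part is between 258 and 274 in E531R and between 139 and 147 in WT libraries.

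The genes whose profile over the 6 libraries was most like that of Pknox2, by the root mean square distance between centred log2 values, were Gpnmb, S100a9, Svep1, Ltf and Msr1, at distances from 0.139 to 0.175. Gpnmb encodes a lysosomal glycoprotein of macrophages, S100a9 and Ltf encode abundant neutrophil proteins, and Msr1 encodes a scavenger receptor of macrophages. Svep1, at place 3, is not counted here with these macrophage and neutrophil genes. Gpnmb averaged 2427 ± 204 in E531R and 145 ± 24.4 in WT libraries, and Msr1 213 ± 26.4 in E531R and 10.3 ± 2.02 in WT (SD, n = 3 each). With 6 libraries in 2 groups, this measure mostly reflects how alike the differences between the groups are. The genes most like Meis1 were Traf6, Rbl2, Ppp6c, Pigb and Baz1b, at distances from 0.0186 to 0.0241.

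Pknox2 lies on chromosome 9 from 36890982 to 37147407 (GRCm38, GENCODE M21), on the minus strand. The annotation puts other transcripts inside it. Of these, the antisense gene Gm3896 had 8 reads over the E531R libraries and 0 over the WT libraries, little beside the 6202 reads of Pknox2 itself. Of the 4 nearest protein-coding genes on each side, 6 were in the fit, and 1 was higher and 1 lower in E531R. Over all tested genes 10.4% were higher and 9.53% lower, and with 6 genes nothing is read from this count. Slc37a2, a sugar phosphate transporter gene 80.2 kb away, had 255, 245 and 268 in E531R replicates 1, 2 and 3, against 71.8, 83.8 and 85.8 in WT replicates 1, 2 and 3. The E531R values were all higher, by 1.66 on the log2 scale (SE 0.11; limma adjusted p = 0.00011).

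Tmem218, a membrane protein gene 60.8 kb from Pknox2, was lower in E531R, at 297 ± 16.8 against 441 ± 43.1 in WT (SD, n = 3 each; limma adjusted p = 0.0084). Without E531R replicate 1 its adjusted p was 0.0502. Chek1, Stt3a, Ei24 and Ccdc15, which are involved in the DNA damage checkpoint, protein glycosylation and other cell functions, had log2 fold changes between -0.13 and 0.30 and did not pass (limma adjusted p from 0.241 to 0.809). Fez1, the nearest neighbour at 12.1 kb, and Hepacam were close to 0, with group means up to 2.04.

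The HOX genes, whose products bind DNA with PBX and MEIS proteins, moved unevenly while Meis1 and Pbx3 stayed level. Of all 39 Hox genes 12 could be tested, 1 was called higher and 6 lower in E531R, and their median log2 fold change was -0.84, beside 0.01 over all tested genes, of which 10.4% were higher and 9.53% lower. The other 27 lay under the minimum mean of 10. Without WT replicate 3, where 24.4% of all tested genes were higher and 22.9% lower, 1 Hox gene was higher and 7 were lower. The count of lower Hox genes was 4 without E531R replicate 1, 4 without E531R replicate 3 and 5 with DESeq2.

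Hoxb13, a posterior Hox gene, fell to 1.39, 4.87 and 0 in E531R replicates 1, 2 and 3, against 121, 149 and 212 in WT replicates 1, 2 and 3. That is 7 reads over the E531R libraries and 475 over the WT libraries, or -6.03 on the log2 scale (SE 0.62; limma adjusted p = 0.000642). With so few E531R reads its size depended on the method, at -3.81 with a pseudocount of 10 and -6.62 with voom. Hoxb4, which is active in blood stem cells, averaged 13.7 ± 3.33 in E531R and 38.9 ± 10.7 in WT (SD, n = 3 each; limma adjusted p = 0.0108). Its adjusted p was 0.053 without E531R replicate 1 and 0.0518 without E531R replicate 3.

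Within the Hoxa cluster Hoxa10 and Hoxa11, at the posterior side, fell to 1316 ± 51.5 and 120 ± 10.7 in E531R, against 5234 ± 271 and 1895 ± 123 in WT (SD, n = 3 each; limma adjusted p = 7.79e-06 and 2.29e-06). Their log2 fold changes were -1.99 and -3.98, while Hoxa7 rose by 0.43 on that scale (limma adjusted p = 0.00633). Hoxa9, the partner of MEIS1 and PBX3 in leukaemia, had 7197 ± 37.4 in E531R and 6971 ± 741 in WT (SD, n = 3 each) and did not pass (limma adjusted p = 0.72), nor did Hoxa5 and Hoxa6 (limma adjusted p = 0.347 and 0.336). Antisense transcripts lie among the Hoxa genes, and the sources used here do not give whether reads were counted by strand.

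Of the 9 other TALE genes listed, 3 could be tested, and all 3 passed, 1 higher and 2 lower. Among all tested genes 10.4% were higher and 9.53% lower, and with 3 genes nothing is read from this count. The other 6 listed genes lay under the minimum mean. Irx5, an Iroquois factor best known from heart and retina, fell to 66.7, 55.5 and 55.5 in E531R replicates 1, 2 and 3, against 397, 405 and 382 in WT replicates 1, 2 and 3. The groups lay far apart, at -2.72 on the log2 scale (SE 0.12; limma adjusted p = 1.32e-05). Mkx, the tendon factor Mohawk, rose to 22.2, 29.2 and 24.3 in E531R replicates 1, 2 and 3, against 1.60, 2.30 and 1.57 in WT replicates 1, 2 and 3, on 87 and 5 reads. Its mean over all 6 libraries, 13.5, reached the minimum of 10 only through the E531R group, as the WT mean was 1.82. The difference was 3.22 on the log2 scale (SE 0.28; limma adjusted p = 0.000326). With so few WT reads its size depended on the method, at 1.57 with a pseudocount of 10 and 3.81 with DESeq2.

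Tgif2, the relative of Tgif1, averaged 19.9 ± 4.71 in E531R and 35.3 ± 1.26 in WT (SD, n = 3 each), and its log2 fold change of -0.82 just passed (limma adjusted p = 0.0447). It no longer passed without E531R replicate 1, 2 or 3 (adjusted p = 0.0727, 0.129 and 0.104), without WT replicate 1 or 2 (0.117 and 0.0917), or with DESeq2 on recovered reads (0.142).

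**Figure D4:**
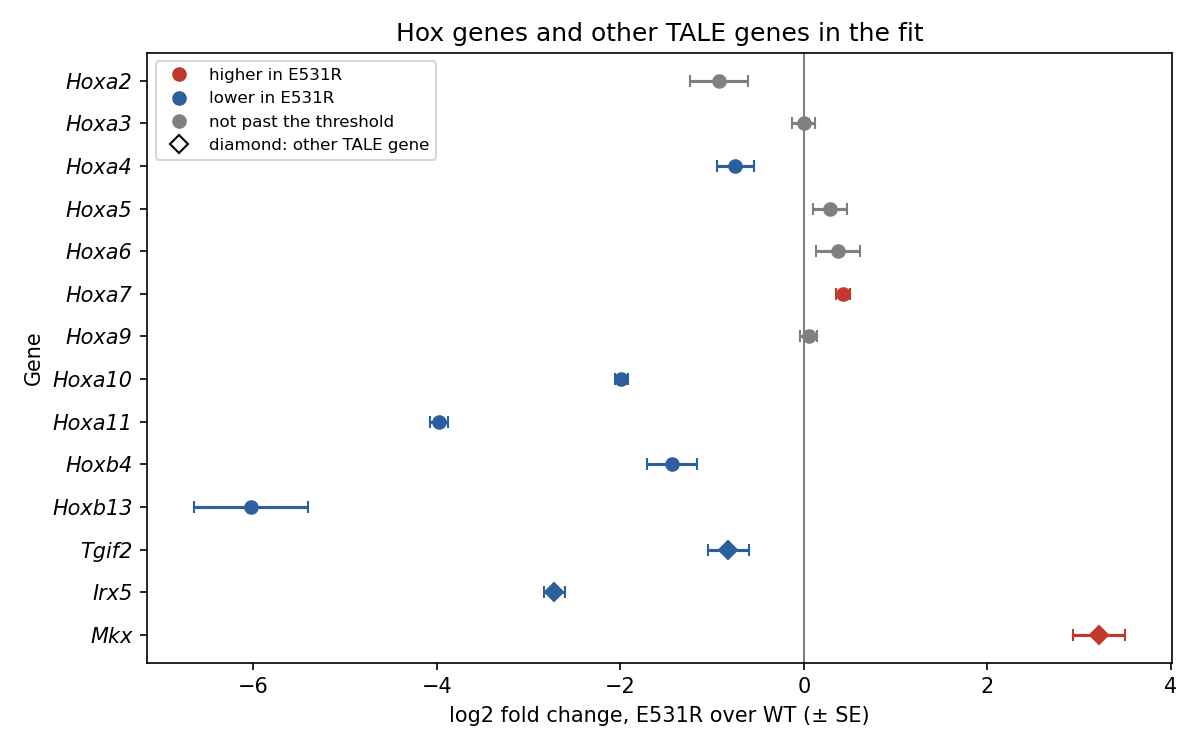
E531R over WT as log2 fold change (x axis), with its SE, for tested Hox genes (circles) and the 3 tested TALE genes outside the described 9 (diamonds), 1 gene per row. Red points were called higher and blue points lower in E531R, and grey points did not pass; Hoxb13 lies at -6.03, Hoxa9 at 0.05 and Mkx at 3.22.

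Of 17 genes known to lie downstream of HOXA9 and MEIS1, 15 could be tested, 5 were higher and 3 lower in E531R, and their median log2 fold change was 0.07, where 10.4% of all tested genes were higher and 9.53% lower. Those lower were the cytokine receptor gene Flt3 and the transcription factor genes Erg and Sox4, at -2.65, -0.74 and -0.96 on the log2 scale (limma adjusted p = 0.000246, 0.00245 and 0.00218). Flt3, with 21 reads over the E531R libraries, stood at -1.72 with a pseudocount of 10. Sox4 averaged 127 ± 11.2 in E531R and 248 ± 28.8 in WT, and Erg 1081 ± 33.2 in E531R and 1817 ± 223 in WT (SD, n = 3 each). Those higher with the smallest adjusted p were Id2, an inhibitor of helix-loop-helix factors, Cd34, a surface marker of progenitors, and Ccl3, a chemokine, at 2.92, 1.01 and 0.54 on the log2 scale. Without E531R replicate 1, 2 or 3, 3 of the 15 were higher in place of 5.

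The most abundant of these downstream genes outside the threshold were Cdk6, Lmo2 and Myb, at -0.12, 0.09 and -0.34 on the log2 scale (limma adjusted p = 0.561, 0.486 and 0.0532). Myb, a transcription factor that progenitors need, passed with DESeq2 on recovered reads (adjusted p = 0.0439). Without WT replicate 3 all 15 passed, 7 higher and 8 lower, with a median of -0.20, where 47.2% of all tested genes passed.

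Of 11 genes of proteins that bind TALE factors, among them histone deacetylases and corepressors, 1 was higher in E531R and 10 did not pass, where 19.9% of all tested genes passed, and the median log2 fold change was 0.07. Ctbp2, a corepressor gene related to the TGIF1 partner CTBP1, averaged 2266 ± 115 in E531R and 1887 ± 67.7 in WT (SD, n = 3 each), or 0.26 on the log2 scale (limma adjusted p = 0.0404). Ctbp2 no longer passed when E531R replicate 1, 2 or 3 was left out (adjusted p = 0.144, 0.194 and 0.0995) or when WT replicate 1 or 2 was (0.0782 and 0.0968). The abundant genes Ncor1, a corepressor, and Hdac1, a histone deacetylase, did not pass and stood at 0.13 and -0.02 on the log2 scale. Without WT replicate 3, 4 of the 11 were higher and 1 lower, where 24.4% and 22.9% of all tested genes were.

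Of 12 genes of the TGF-beta pathway that TGIF1 restrains, 2 were higher and 1 lower in E531R, shares near the 10.4% and 9.53% of all tested genes, and the median log2 fold change was 0.22. The receptor gene Tgfbr2 rose to 1436 ± 31.3 in E531R, against 985 ± 81.3 in WT (SD, n = 3 each), or 0.55 on the log2 scale (limma adjusted p = 0.00371). Smad3, a transcription factor that the receptor activates, fell to 55.7 ± 12.1 in E531R, against 139 ± 23.5 in WT (SD, n = 3 each), or -1.31 on the log2 scale (limma adjusted p = 0.00483). Its relative Smad2 had a log2 fold change of 0.26 (limma adjusted p = 0.0334), which did not hold when E531R replicate 1, 2 or 3 was left out (adjusted p = 0.173, 0.126 and 0.12) or when WT replicate 1 or 2 was (0.105 and 0.0509).

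The most abundant TGF-beta pathway genes that did not pass were Tgfb1, Ski and Tgfbr1, encoding the ligand, a corepressor of SMAD proteins and a receptor, at -0.13, 0.22 and 0.24 on the log2 scale. Without WT replicate 3, 6 of the 12 were higher and 3 lower, where 24.4% and 22.9% of all tested genes were, and Ski (log2 fold change 0.32, limma adjusted p = 1.05e-05) and Tgfbr1 (-0.16, limma adjusted p = 0.00785) passed in opposite directions.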

How the data were processed

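The deposited signal values are normalised gene counts of 6 libraries: the authors divided read counts by a size factor for each library. FastQC, cutadapt, HISAT2, SAMtools, featureCounts and DESeq2 with GRCm38 were used, per the submitters' processing notes, without versions; the sources used here do not give the annotation or the strand setting. Whole reads were recovered from the smallest value above 0 in each column, with 100% of them whole to within 0.001 reads. The deposited table also holds log2 fold changes of WT over E531R, a test score (the DESeq2 Wald statistic) and p-values, per the file headers. Size factors would hide a shift shared by all genes.

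The 9 genes and all lists were chosen with earlier results of these data known. Tests were run with limma 3.58.1 (R version 4.3.3), using a trend of variance on mean level, on log2(value + 1), two-sided. They covered the 12991 genes whose mean was 10 or more, with Benjamini-Hochberg adjustment over them and a threshold of 0.05, and were tested on simulated data. Some genes, among them Mkx, Hoxb13, Flt3 and Pbx4, reached that mean only through the group where they were high. Named from each list are up to 6 genes past the threshold with the smallest adjusted p and the 3 most abundant others, and for Pknox2 and Meis1 the 5 genes of most alike profile. The neighbours of Pknox2 were taken by position, outside that rule, after their values were seen. The values of a few listed genes are not reported here, though the counts over the lists include them. Exon lengths and positions are from GENCODE M21, promoters from RefSeq. At totals between 14161139 and 33459668 reads, genes with few reads are limited by counting error. Alternatives tried were a pseudocount of 0.5 or 10, no filter on low values, a minimum mean of 50, TMM, edgeR 4.0.16 (which called 1393 genes higher and 1251 lower on recovered reads), DESeq2 1.42.0, voom, the replicate number as a block, the longest transcript as length and leaving out each library.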

Additional observations from a re-analysis of the deposited data

How the results depend on the processing

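All 15 alternatives kept the sign of the log2 fold changes of Pknox2, Pknox1, Tgif1, Meis1 and Pbx2, as did the 14 that kept Pbx4; Pbx3 and Meis3, both near 0, changed sign in 1 each. Pknox2 ran from 4.04 (pseudocount 10) to 4.19 and from 4.12 to 4.19 without 1 library. Without 1 library the TALE genes past the threshold were 1 to 2 higher and 3 lower; DESeq2 gave 2 higher. Over all genes, leaving out 1 library gave 804 to 3169 higher and 764 to 2974 lower: 804, 814 and 823 higher without E531R replicate 1, 2 and 3, and 3169 without WT replicate 3. Leaving out 1 library also gave 3 to 7 higher and 3 to 8 lower for genes downstream of HOXA9 and MEIS1, 0 to 4 higher and 0 to 1 lower for TALE partners, 1 to 6 higher and 1 to 3 lower for TGF-beta genes, and 1 to 2 lower for other TALE genes. For Hox genes it gave 4 to 7 lower. With no filter 2 Hox genes, 2 other TALE genes, 0 partners and 1 TGF-beta gene were higher and 1 other TALE gene lower. With a minimum mean of 50, 0 other TALE genes were higher and 1 lower, as low genes leave the test. DESeq2 called 1 other TALE gene and 5 downstream genes lower. With the longest transcript as length Pknox2 came at place 6 in WT. For the other shifts the cause was not tested.

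Same-numbered libraries deviated from their group means with correlations of 0.00174, 0.192 and 0.238. E531R replicates 2 and 3 correlated best with the WT library of their own number. E531R replicate 1 correlated slightly better with WT replicate 2 (0.0224). Whether the numbers pair the libraries cannot be told from these values. With the replicate number as a block, 1179 genes were higher and 1062 lower, with 0 partners higher, 1 TGF-beta gene higher and 1 other TALE gene lower. Depth limits Meis2, Meis3 and Pbx4, with at most 42 reads in any library.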
